A study of Homo sapiens with 9 samples.

Results

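Extracellular matrix genes and matrix proteases were followed in KG-1a, a line grown from a human acute myeloid leukaemia, with and without an intact PRMT2 gene. PRMT2 encodes a protein arginine methyltransferase. The set was taken by name: every collagen chain gene of the form COL-A, every laminin chain gene, every numbered ADAMTS and MMP protease and every TIMP inhibitor, together with 12 further genes (VCAN, THBS1, THBS2, FN1, SPARC, LOX, LOXL1, LOXL2 and HAPLN1 to HAPLN4). It holds 113 of the 60605 genes counted. The rule uses gene names alone, though it was chosen with earlier results of these data known.

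RNA was sequenced from 3 groups of 3 libraries. The first was wild-type cells (WT), and the others were 2 lines with PRMT2 knocked out by CRISPR/Cas9, called KO clone 1 and KO clone 2. All cells carried the KG-1a background, were grown in the same medium with fetal bovine serum, and received no drug. Each knockout line is 1 clone, so an effect of the knockout and a trait of a clone cannot be told apart within 1 clone. The sources used here do not give whether a group's 3 libraries came from separate cultures, or whether the WT cells had been cloned. The p-values therefore cover the spread among these libraries, which may be technical. Between 28006342 and 43149410 read pairs were counted on the sense strand of genes per library, 25.9% to 29.6% of all its pairs.

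The extracellular matrix is the network of collagens, laminins, proteoglycans and glycoproteins that cells secrete around themselves. Collagens form fibrils, laminins form sheets that cells bind through integrins, versican (VCAN) binds hyaluronan with the help of link proteins (HAPLN), and lysyl oxidases (LOX) join collagen chains covalently. MMP and ADAMTS enzymes cut these proteins, and TIMP proteins inhibit the enzymes. In bone marrow most fibrillar matrix is made by stromal cells, while blood cells make a smaller set that includes versican, thrombospondin 1 and their own proteases.

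PRMT2 (ENSG00000160310) itself was read in every library first. Its level was 39.4, 39.0 and 39.8 counts per 1000000 counts (CPM) in WT, 21.3, 20.2 and 20.7 in KO clone 1, and 21.4, 21.1 and 21.2 in KO clone 2. Its RNA was therefore lower in all 6 knockout libraries than in any WT library, by a log2 fold change of -0.93 in KO clone 1 (SE 0.0554, adjusted p = 7.795e-18) and -0.89 in KO clone 2 (adjusted p = 1.507e-17). The RNA was not lost. An edit that stops the protein need not remove the RNA, and the protein was not measured.

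Here and below, fold changes are log2 values from edgeR's quasi-likelihood test on the counts of all genes, p-values are adjusted by Benjamini and Hochberg over the 20655 genes that passed a filter on low counts, and a gene is called when the adjusted p is under 0.05 and the log2 fold change is at least 1 in size. KO clone 1 replicate 1 stands apart from the rest: read pairs with more than 1 mapping position made up 13.3% of it and 3.86% to 4.51% of the others, and its mitochondrial ribosomal RNA MT-RNR1 stood at 13440 CPM against 14.8 to 52.0. Without it the counts of called members were 15 in KO clone 1, 10 in KO clone 2 and 7 between the clones, against 16, 10 and 10 with it.

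Many of these genes were low or absent. Of the 113 members, 6 had no count in any library, 35 had at most 3 counts in every library, 56 had a count in every library and 49 passed the filter. Of all 60605 genes counted, 20655 passed. That total also holds genes that do not code for protein, such as MT-RNR1. The share that passed among protein-coding genes alone was not taken. A gene could pass through 1 group alone, so the 49 are not a neutral sample of the set. Only 36 exceeded 1 CPM in a group. Collagen IV, VIII and X, the collagens that form networks, were nearly absent: 8 of their 9 chains had at most 3 counts in every library and none passed. Of the 22 MMP genes 4 passed, and of the 4 TIMP genes only TIMP1. The lysyl oxidases passed in full (3 of 3), as did both multiplexin collagens, and 12 of the 19 ADAMTS proteases, 7 of the 11 fibrillar collagens and 6 of the 12 laminin chains also passed.

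**Figure D1:**
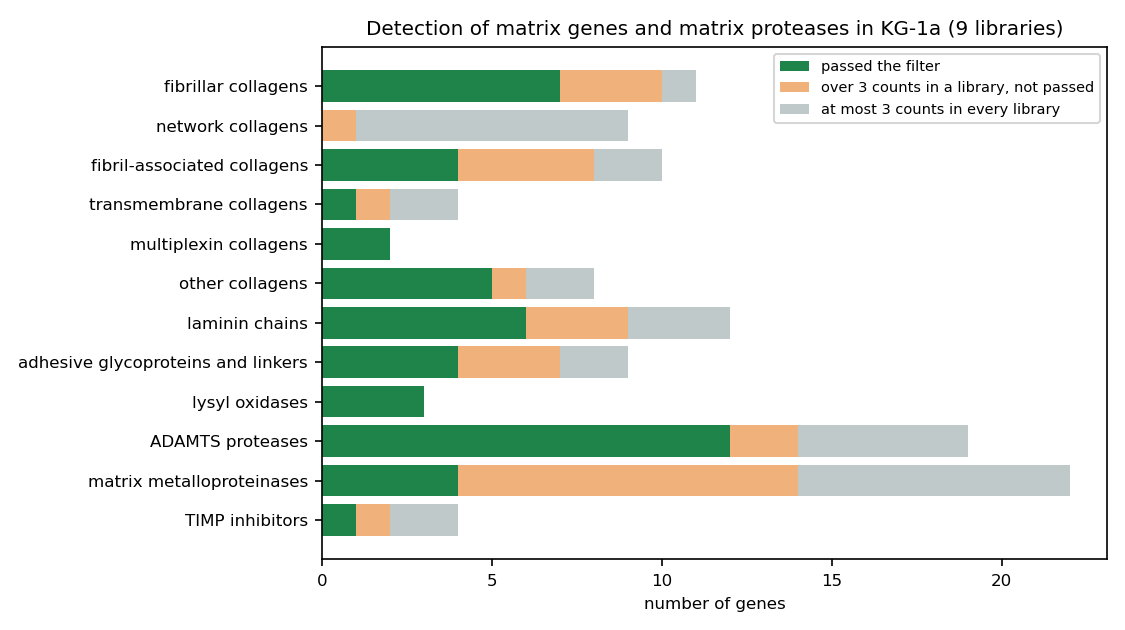
Number of genes in each role group by detection: passed the filter on low counts, did not pass but had more than 3 counts in some library, or had at most 3 counts in every library. Nearly all network collagens (8 of 9) fall in the last class, while 12 of 19 ADAMTS proteases passed.

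Some of the genes that fibroblasts are known for were close to the floor. FN1 (fibronectin) had 23, 12 and 43 counts in WT, KO clone 1 and KO clone 2, each summed over 3 libraries, COL1A2 had 18, 18 and 15, and COL4A1 had 5, 4 and 4. Others that fibroblasts also make, namely SPARC, COL3A1, COL5A2 and COL6A3, were above 1 CPM in WT and are described below, and COL1A1 passed the filter at means of 0.291, 0.288 and 0.436 CPM. The gelatinases were as scarce, with 21, 6 and 13 counts for MMP9 and 6, 3 and 23 for MMP2. A floor of 3 counts is worth 0.0701 to 0.110 CPM in these libraries, and intervals and floors of this kind cover counting error only. Levels between genes can be compared only per length of transcript. On that scale, ordered by the WT level, TIMP1 led with 56.2 CPM per kb in WT, 39.4 in KO clone 1 and 47.9 in KO clone 2. ADAMTS10 followed with 17.1, 9.79 and 10.5 CPM per kb, then LAMC1 with 6.66, 9.996 and 10.3 and MMP7 with 6.20, 8.53 and 5.60. The order changed in the clones: LAMC1 lay just above ADAMTS10 in KO clone 1, and COL23A1 at 6.43 and SPARC at 5.999 CPM per kb lay above MMP7 in KO clone 2.

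Other cell types that make matrix were looked for through their markers. The 7 markers of the labelled cell type, among them CD34 and PTPRC, summed to 2896 to 2954 CPM in WT, 3103 to 3171 in KO clone 1 and 2997 to 3061 in KO clone 2. Fibroblast markers, of which 3 of 10 passed and 4 had at most 3 counts everywhere, summed to 8.84 to 9.77 CPM in WT, 14.2 to 15.2 in KO clone 1 and 11.9 to 14.6 in KO clone 2. Most of that was TAGLN, and LUM, POSTN and TWIST2 were at or near 0. PDGFRA was called lower in KO clone 1 (-1.18) and higher in KO clone 2 (1.63), at 1.00, 0.443 and 3.15 CPM in WT, KO clone 1 and KO clone 2. Endothelial markers, 3 of 5 passed, summed to 7.53 to 7.90, 5.99 to 6.29 and 8.13 to 9.14 CPM, mostly VWF, with CDH5 at 0. KDR was called lower in KO clone 1 (-2.33) near the floor, by 2, 1 and 0 counts against 4, 12 and 4 in WT. Monocyte and macrophage markers, 3 of 6 passed, summed to 10.3 to 10.8, 6.81 to 8.09 and 8.27 to 8.97 CPM, mostly ITGAM, with MARCO at 0. CSF1R was called lower in KO clone 1 (-3.06), by 1, 1 and 2 counts against 10, 15 and 18 in WT. Of its stranded counts 89.71% lay on the opposite strand. Megakaryocyte and platelet markers summed to 418 to 450, 639 to 662 and 688 to 710 CPM, nearly all of it ITGA2B, the 1 of 5 that passed, with GP1BA, GP9, PF4 and PPBP at or near 0. These sums moved with the groups, and their part in the results below was not tested.

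Lower calls outnumbered higher ones in both clones, among the members and among all genes tested alike. In KO clone 1, 3 members were higher and 13 lower than in WT, 16 of the 49 that passed, or 32.7%, where 7.58% of all genes tested were called, 2.6% higher and 4.98% lower. In KO clone 2, 4 were higher and 6 lower, or 20.4% of the 49, beside 5.96% of all genes, 1.83% higher and 4.13% lower. In the mean of both clones 3 were higher and 11 lower, or 28.6%, beside 6.53% of all genes, 2% higher and 4.53% lower. The adjusted p alone, with no fold minimum, was passed by 31 of the 49 members in KO clone 1. In KO clone 2 it was passed by 29 of the 49, and in the mean of both by 30 of the 49. Of all 20655 genes tested, 7475, 6293 and 7282 passed it in these comparisons, or 36.2%, 30.5% and 35.3%. The filter favours genes that differ, and the members were chosen with earlier results of these data known. These shares, and those given below between the clones and for a wider list, therefore describe the genes listed and are no test of them. The median log2 fold change of the 49 was -0.17 in KO clone 1 and -0.16 in KO clone 2, and 0.00 in both over all genes tested. Both clones shared 7 calls in the same direction, 14.3% of the 49 beside 4.34% of all genes, of which 1.3% were higher and 3.04% lower. Of these ADAMTS1, ADAMTS17, COL21A1, COL5A1 and HAPLN3 were lower, and LOX and MMP14 higher. By the adjusted p alone 24 of the 49 members moved the same way in both, beside 4040 of all 20655 genes (19.6%). Both comparisons use the same WT libraries and are not independent.

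**Figure D2:**
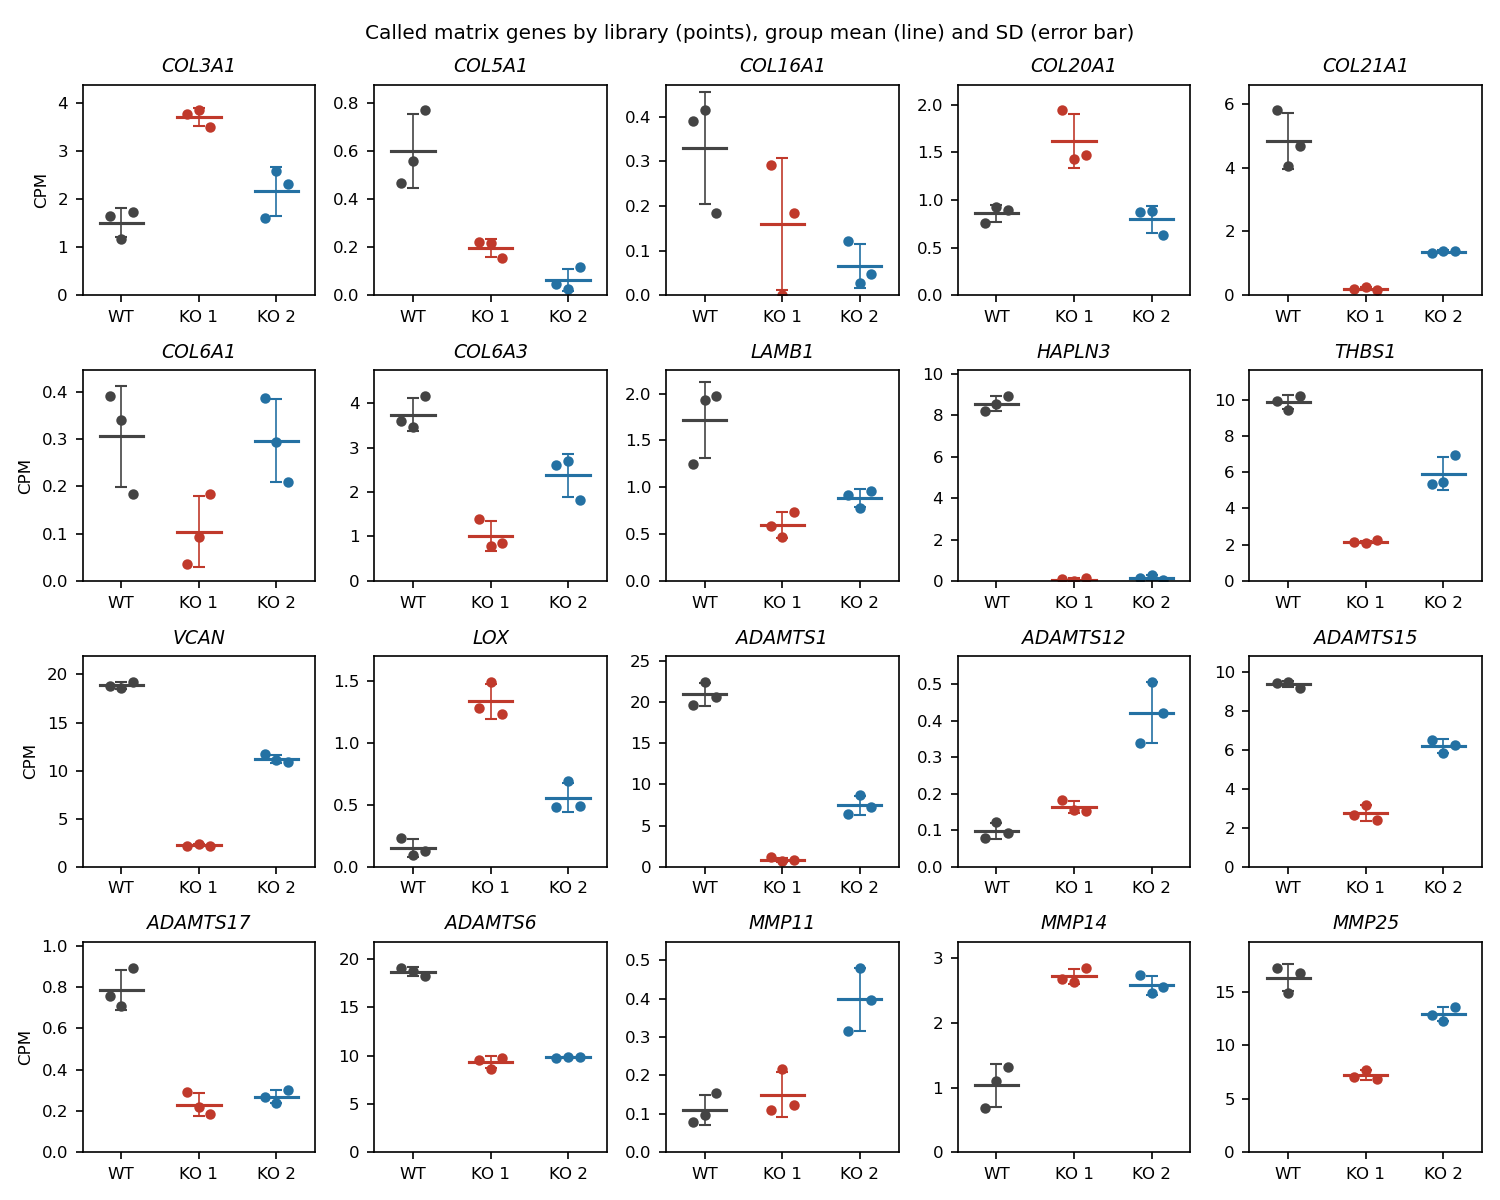
CPM (vertical axes, linear, from 0) in each of the 9 libraries for the members called in at least 1 comparison. Points are libraries, lines group means and error bars SD over 3 libraries. HAPLN3 falls from over 8 CPM in WT to under 0.3 CPM in all 6 knockout libraries, and MMP14 lies above every WT library in all of them.

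Among the linker and adhesive glycoproteins 4 of 9 genes passed, and 3 fell in the mean of both clones while 1 rose without reaching the fold minimum. HAPLN3 (ENSG00000140511; GRCh38 chr15:88877294-88895597, minus strand), which encodes a link protein that ties proteoglycans to hyaluronan, had the largest log2 fold change of the 49. It stood at 8.22, 8.56 and 8.94 CPM in WT. In KO clone 1 it had 2, 0 and 4 counts, or 0.0732, 0 and 0.123 CPM, and in KO clone 2 it had 6, 10 and 1 counts, or 0.145, 0.267 and 0.0234 CPM. Both clones were thus near the floor, at about 0.762% and 1.69% of the WT level by 6 and 17 counts. The log2 fold change was -6.96 (SE 0.312, adjusted p = 1.009e-19) in KO clone 1 and -5.90 (SE 0.256, adjusted p = 4.712e-20) in KO clone 2. With so few counts the size depends on single libraries: it ran from -7.85 (without KO clone 1 replicate 3) to -6.37 (without KO clone 1 replicate 2) in KO clone 1, and from -6.62 (without KO clone 2 replicate 2) to -5.37 (without KO clone 2 replicate 3) in KO clone 2. The clones differed from each other by 1.07, which did not pass the test (adjusted p = 0.3011).

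VCAN (ENSG00000038427; chr5:83471618-83582303) encodes versican, the large hyaluronan-binding proteoglycan. Its WT level of 18.8, 18.6 and 19.2 CPM fell to 2.20, 2.33 and 2.18 in KO clone 1 and to 11.7, 11.1 and 10.9 in KO clone 2. The groups did not overlap, and the clones lay far apart, at 11.8% and 59.5% of WT. The log2 fold change was -3.07 in KO clone 1 (adjusted p = 9.465e-27) and -0.75 in KO clone 2 (adjusted p = 1.506e-10), which is under the fold minimum. Tested directly, KO clone 2 exceeded KO clone 1 by 2.33 (adjusted p = 2.819e-21). In the authors' deposited table, which compares both clones together with WT, VCAN has a log2 fold change of -1.49 with an adjusted p of 0.1521. ADAMTS1, described next among the proteases, has -2.31 with an adjusted p of 0.05686 in that table. HAPLN1, the cartilage link protein, has its gene body 55502 bases from that of VCAN and had 1, 3 and 0 counts in the 3 groups.

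THBS1 (ENSG00000137801; chr15:39581079-39599466) encodes thrombospondin 1, an adhesive glycoprotein that can activate latent TGF-beta. Levels of 9.94, 9.43 and 10.2 CPM in WT stood against 2.12, 2.11 and 2.24 in KO clone 1 and 5.33, 5.44 and 6.97 in KO clone 2. The order WT, KO clone 2, KO clone 1 was the same as for VCAN, again with no overlap. It fell by 2.19 in KO clone 1 (adjusted p = 2.966e-18) and by 0.73 in KO clone 2 (adjusted p = 3.474e-07), and the clones differed by 1.45 (adjusted p = 1.008e-11). Counted without regard to strand the fall in the mean of both clones was -0.55 and the difference between the clones 0.32, neither called.

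SPARC, a collagen-binding secreted glycoprotein, moved the other way. Its 18.3, 19.9 and 17.5 CPM in WT became 30.9, 34.1 and 31.9 in KO clone 1 and 29.5, 26.5 and 27.4 in KO clone 2. Every knockout library exceeded every WT library, by 0.80 in KO clone 1 (adjusted p = 4.148e-14) and 0.58 in KO clone 2 (adjusted p = 2.792e-10), both under the fold minimum.

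The ADAMTS proteases, secreted enzymes with thrombospondin repeats, had the largest drop in summed CPM of all role groups. Their summed level was 172 CPM in WT, 96.3 in KO clone 1 and 113 in KO clone 2. In the mean of both clones 3 of the 12 that passed were called lower, 1 was called higher, 2 further ones passed the adjusted p alone with a fall, 1 with a rise, and 5 did not pass. ADAMTS1 (ENSG00000154734; chr21:26835755-26845409), which cuts versican and aggrecan, stood at 19.7, 22.5 and 20.7 CPM in WT, 1.13, 0.652 and 0.767 in KO clone 1 and 6.38, 8.67 and 7.32 in KO clone 2. Only 4.06% of the WT level was left in KO clone 1 and 35.6% in KO clone 2. The log2 fold changes were -4.64 (SE 0.142, adjusted p = 1.886e-26) and -1.49 (SE 0.097, adjusted p = 6.208e-16), and the clones differed by 3.15 (SE 0.157, adjusted p = 7.351e-19), the largest difference between the clones among the members.

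ADAMTS15 (ENSG00000166106), another enzyme that cuts versican, followed the same order at lower levels. It was measured at 9.44, 9.51 and 9.21 CPM in WT, 2.64, 3.20 and 2.42 in KO clone 1 and 6.52, 5.84 and 6.26 in KO clone 2. The fall was 1.77 in KO clone 1 (adjusted p = 2.855e-16), where it decreased to 29.3% of WT, and 0.60 in KO clone 2 (adjusted p = 8.603e-06), and the clones differed by 1.17 (adjusted p = 3.496e-10).

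ADAMTS6, ADAMTS10 and ADAMTS17 are enzymes linked to fibrillin microfibrils, and here the clones lay close to each other. ADAMTS10, the most abundant ADAMTS RNA, stood at 106, 92.3 and 93.9 CPM in WT, 58.8, 53.5 and 55.3 in KO clone 1 and 58.8, 61.7 and 58.8 in KO clone 2. It fell by 0.80 (adjusted p = 1.688e-16) and 0.71 (adjusted p = 4.027e-15), under the fold minimum in both. ADAMTS6 went from 19.1, 18.7 and 18.2 CPM to 9.59, 8.66 and 9.79 in KO clone 1 and 9.77, 9.82 and 9.89 in KO clone 2. Its log2 fold change of -1.0005 in KO clone 1 just met the fold minimum and missed it when any of 5 single libraries was left out, going as far as -0.95, and that of -0.93 in KO clone 2 lay just outside. The clones differed by 0.07 (adjusted p = 0.5836). ADAMTS17 was scarcer, at 0.756, 0.707 and 0.894 CPM in WT, 0.293, 0.217 and 0.184 in KO clone 1 and 0.267, 0.240 and 0.304 in KO clone 2. It was called lower in each clone, by 1.76 (adjusted p = 0.0003137) and 1.52 (adjusted p = 0.0007946). FBN1, which encodes fibrillin 1 and is not one of the 113, also fell, as given further on.

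ADAMTS12 was the one protease of this family called higher. It had 3, 5 and 3 counts in WT, 5, 5 and 5 in KO clone 1, and 14, 19 and 18 in KO clone 2. Every library of KO clone 2 lay above the other groups, with a log2 fold change of 2.06 over WT (adjusted p = 0.00129), and KO clone 1 was not called. The call in the mean of both clones (1.39, adjusted p = 0.0294) and the difference between the clones (1.35, adjusted p = 0.03297) were each lost in 7 of the alternatives tried, among them leaving out KO clone 1 replicate 1. ADAMTS19, at 10.3 ± 1.08 CPM in WT (SD, n = 3), 10.4 ± 0.354 in KO clone 1 and 10.9 ± 0.885 in KO clone 2, did not pass the test. ADAMTS3, which cuts the amino end off procollagens, stood at 10.2, 10.7 and 11.5 CPM in WT, 11.5, 13.4 and 12.6 in KO clone 1 and 14.96, 14.5 and 13.5 in KO clone 2. It passed the adjusted p as higher in both, by 0.22 (adjusted p = 0.03821) and 0.41 (adjusted p = 7.612e-05), under the fold minimum. ADAMTS13, which cuts von Willebrand factor, stood at 2.06 ± 0.183, 2.81 ± 0.466 and 2.17 ± 0.437 CPM and passed the adjusted p in KO clone 1 alone (0.44, adjusted p = 0.045).

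TIMP1 (ENSG00000102265; chrX:47582408-47586789), the inhibitor of most MMP enzymes, was lower in both clones. It stood at 82.2, 76.3 and 85.2 CPM in WT, 57.1, 55.4 and 58.4 in KO clone 1 and 70.0, 70.5 and 67.3 in KO clone 2, with no overlap between the groups. The log2 fold changes of -0.51 (adjusted p = 1.479e-13) and -0.23 (adjusted p = 1.458e-05) were under the fold minimum, and KO clone 2 exceeded KO clone 1 by 0.28 (adjusted p = 1.069e-06). TIMP2, TIMP3 and TIMP4 had at most 7 counts in any group, so the inhibitor RNA measured here was TIMP1.

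Of the 4 matrix metalloproteinases that passed the filter, 2 are anchored to the cell surface, and these moved in opposite directions. MMP14 (ENSG00000157227; chr14:22836560-22849041) encodes the membrane enzyme that cuts collagen and activates the MMP2 precursor. Its level was 0.678, 1.10 and 1.32 CPM in WT, 2.67, 2.64 and 2.85 in KO clone 1 and 2.74, 2.45 and 2.55 in KO clone 2. All 6 knockout libraries lay above WT, by 1.41 (adjusted p = 1.387e-07) and 1.33 (adjusted p = 3.421e-07), and the clones differed by -0.08 (adjusted p = 0.8032). MMP25 (ENSG00000008516), a membrane enzyme known from neutrophils, stood at 17.2, 14.9 and 16.8 CPM in WT, 7.06, 7.70 and 6.87 in KO clone 1 and 12.8, 12.3 and 13.6 in KO clone 2. It fell by 1.17 in KO clone 1 (adjusted p = 6.378e-15) and 0.34 in KO clone 2 (adjusted p = 0.0007873), and the clones differed by 0.84 (adjusted p = 3.822e-10). Read without strand its fold change in KO clone 1 was -0.69 and not called. Of the read pairs counted for it on either strand, 74.45% lay on the opposite one, where MMP25-AS1 overlaps it.

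MMP7, or matrilysin, was the most abundant of the secreted MMP RNAs. It stood at 14.9, 14.4 and 13.9 CPM in WT, 19.6, 20.2 and 19.5 in KO clone 1 and 12.3, 12.9 and 13.7 in KO clone 2. KO clone 1 rose by 0.46 (adjusted p = 1.037e-06), KO clone 2 did not pass the test (-0.15, adjusted p = 0.1191), and the difference between them was -0.61 (adjusted p = 6.344e-09). MMP7 lies in a cluster of 9 MMP genes at chr11:102520508-102955732, where it had 5015 counts over the 9 libraries and each of the other 8 had at most 14. MMP11, a secreted enzyme first described in tumour stroma, had 3, 4 and 5 counts in WT, 3, 7 and 4 in KO clone 1 and 13, 18 and 17 in KO clone 2. It was called higher in KO clone 2 (1.85, adjusted p = 0.004439; 1.11 without regard to strand), and its difference between the clones (1.37, adjusted p = 0.03972) was lost in 7 of the alternatives tried, KO clone 1 replicate 1 left out being one.

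Collagen chains did not all move the same way. The fibrillar collagens summed to 24.6 CPM in WT, 30.7 in KO clone 1 and 25.0 in KO clone 2, and 13.5 CPM of the WT sum was COL24A1 alone. COL24A1 stood at 12.5, 15.4 and 12.6 CPM in WT, 15.1, 14.5 and 15.9 in KO clone 1 and 11.3, 12.0 and 11.7 in KO clone 2, so KO clone 1 overlapped WT and KO clone 2 lay just under it, and the clones differed by -0.38 (adjusted p = 0.0003991). COL5A1 (ENSG00000130635; chr9:134641803-134844843), a chain of the collagen that starts fibrils, fell in both clones. It was measured at 0.470, 0.561 and 0.770 CPM in WT, 0.220, 0.217 and 0.153 in KO clone 1 and 0.0485, 0.0267 and 0.117 in KO clone 2. The changes were -1.59 (adjusted p = 0.004867) and -3.11 (adjusted p = 6.274e-06). The latter rests on 2, 1 and 5 counts, and it was -3.85 without KO clone 2 replicate 3 and -2.30 without regard to strand, called in both. Its partner chain COL5A2 stood at 1.25 ± 0.231, 1.42 ± 0.255 and 1.49 ± 0.253 CPM and did not pass in either clone.

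COL3A1, which lies 19152 bases from COL5A2, rose in KO clone 1. It had 1.64, 1.17 and 1.73 CPM in WT, 3.77, 3.85 and 3.50 in KO clone 1 and 1.60, 2.59 and 2.31 in KO clone 2. The change was 1.30 in KO clone 1 (adjusted p = 1.189e-07) and 0.53 in KO clone 2 (adjusted p = 0.02846), where 1 library lay within the WT range, and the clones differed by -0.78 (adjusted p = 0.000427). COL11A2 passed the adjusted p in both clones with changes of 0.39 and 0.32, from 6.40 ± 0.245 CPM in WT.

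Fibril-associated collagens decorate fibrils and do not form them. COL21A1 (ENSG00000124749; chr6:56056590-56394094) was the most reduced collagen in KO clone 1. Its 5.79, 4.05 and 4.68 CPM in WT fell to 0.183, 0.248 and 0.153 in KO clone 1 and to 1.31, 1.39 and 1.38 in KO clone 2, 4.03% and 28.1% of WT. The log2 fold changes were -4.61 (adjusted p = 4.492e-19) and -1.83 (adjusted p = 4.112e-12), and the clones differed by 2.78 (adjusted p = 1.358e-09). COL16A1 had 15, 17 and 6 counts in WT, 8, 0 and 6 in KO clone 1 and 5, 1 and 2 in KO clone 2. It was called lower in KO clone 2 (-2.30, adjusted p = 0.006324) and in the mean of both clones (-1.71, adjusted p = 0.009037), and the latter was lost without WT replicate 1 or WT replicate 2, with an adjusted p of up to 0.07154. The change in KO clone 2 was -3.06 without KO clone 2 replicate 1 and -1.37 without regard to strand, called in both, and 50% of the stranded read pairs over COL16A1 lay on the opposite strand, where PEF1-AS1 overlaps it.

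COL20A1 differed between the clones and not in a shared direction. It stood at 0.756, 0.926 and 0.894 CPM in WT, 1.94, 1.43 and 1.47 in KO clone 1 and 0.873, 0.881 and 0.631 in KO clone 2. The difference of -1.01 between the clones (adjusted p = 0.001013) shrank to -0.87 without KO clone 1 replicate 1 or without KO clone 2 replicate 3, under the fold minimum. COL23A1, a transmembrane collagen, split the clones around WT. Its 24.0, 23.0 and 21.9 CPM in WT became 14.8, 14.5 and 14.9 in KO clone 1 and 27.8, 26.6 and 29.7 in KO clone 2, a fall of 0.64 (adjusted p = 9.531e-11) in the first and a rise of 0.29 (adjusted p = 0.0002058) in the second. The clones differed by 0.93 (adjusted p = 4.642e-15), with WT between them and no overlap.

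Collagen VI is built from 3 different chains, and these did not move as one. COL6A3, the longest chain, stood at 3.60, 3.46 and 4.16 CPM in WT, 1.39, 0.776 and 0.859 in KO clone 1 and 2.62, 2.69 and 1.82 in KO clone 2. It fell by 1.91 (adjusted p = 1.585e-10) and 0.65 (adjusted p = 0.001859), and the clones differed by 1.25 (adjusted p = 8.989e-06). COL6A1 had 15, 14 and 6 counts in WT, 1, 3 and 6 in KO clone 1 and 16, 11 and 9 in KO clone 2. Its call in KO clone 1 (-1.49, adjusted p = 0.04043) was lost in 8 of the 15 alternatives tried, with values from -2.16 (without KO clone 1 replicate 3) to -1.10 (without regard to strand) and an adjusted p of up to 0.1658, and KO clone 2 stood at -0.07. COL6A2 had 3, 5 and 2 counts in WT, 1, 1 and 2 in KO clone 1 and 1, 6 and 3 in KO clone 2 and did not pass the filter. COL7A1, the anchoring fibril collagen, went from 3.46 ± 0.313 CPM in WT to 6.81 ± 0.661 and 5.75 ± 0.650, with changes of 0.97 and 0.73 that lay under the fold minimum.

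PRMT2 lies on chromosome 21, as do 5 members. COL6A2, COL6A1 and COL18A1 are its near neighbours, at 0.50, 0.63 and 1.12 Mb. COL18A1, the source of the fragment endostatin, stood at 7.85, 6.85 and 6.90 CPM in WT, 5.27, 5.84 and 5.89 in KO clone 1 and 4.78, 4.27 and 4.75 in KO clone 2. It fell by 0.34 (adjusted p = 0.0115) and 0.65 (adjusted p = 6.391e-06), and the clones differed by -0.30 (adjusted p = 0.04513). Of the stranded read pairs over COL18A1 71.7% lay on the other strand. ADAMTS1 and ADAMTS5, neighbours 72513 bases apart, lie far from PRMT2 on the same chromosome, and ADAMTS5 had 0, 1 and 0 counts in WT, 2, 0 and 0 in KO clone 1 and none in KO clone 2.

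The laminins summed to more RNA in both clones, at 69.5 CPM in WT, 93.9 in KO clone 1 and 97.1 in KO clone 2. Most of it was LAMC1 (ENSG00000135862), the gamma 1 chain that most laminins share. LAMC1 stood at 55.4, 57.4 and 56.0 CPM in WT, 83.2, 84.0 and 86.1 in KO clone 1 and 88.5, 83.6 and 87.8 in KO clone 2. It rose by 0.58 (adjusted p = 1.494e-16) and 0.62 (adjusted p = 1.655e-17), under the fold minimum in each clone. The beta chains did not follow. LAMB1 stood at 1.25, 1.93 and 1.97 CPM in WT, 0.586, 0.466 and 0.736 in KO clone 1 and 0.921, 0.774 and 0.958 in KO clone 2. It was called lower in KO clone 1 (-1.52, adjusted p = 7.343e-06), and in KO clone 2 its change was -0.95 (adjusted p = 0.001243). Of the stranded read pairs over LAMB1, 94.58% lay on the other strand, where DLD overlaps it, and without regard to strand its change in the mean of both clones was 0.05 (adjusted p = 0.594). LAMB4, a neighbour 20335 bases away, stood at 8.01 ± 0.864, 5.07 ± 0.162 and 6.28 ± 0.479 CPM, with changes of -0.66 and -0.35 that passed the adjusted p.

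LOX (ENSG00000113083; chr5:122063195-122078413), the lysyl oxidase that crosslinks collagen and elastin, was called higher in each clone from a very low level. It had 0.235, 0.0975 and 0.123 CPM in WT, 1.28, 1.49 and 1.23 in KO clone 1 and 0.485, 0.694 and 0.491 in KO clone 2. All 6 knockout libraries exceeded WT, by 3.10 (adjusted p = 2.993e-09) and 1.84 (adjusted p = 0.0003494), and the clones differed by -1.26 (adjusted p = 0.0007669). On the other strand, where SRFBP1 overlaps it, lay 67.5% of the stranded read pairs. Without regard to strand its change in the mean of both clones was 0.62 and the difference between the clones -0.46, neither called. LOXL1 and LOXL2 did not pass the test in either clone. LOXL2 stood at 4.68 ± 0.824, 4.27 ± 0.509 and 3.89 ± 0.178 CPM.

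**Figure D3:**
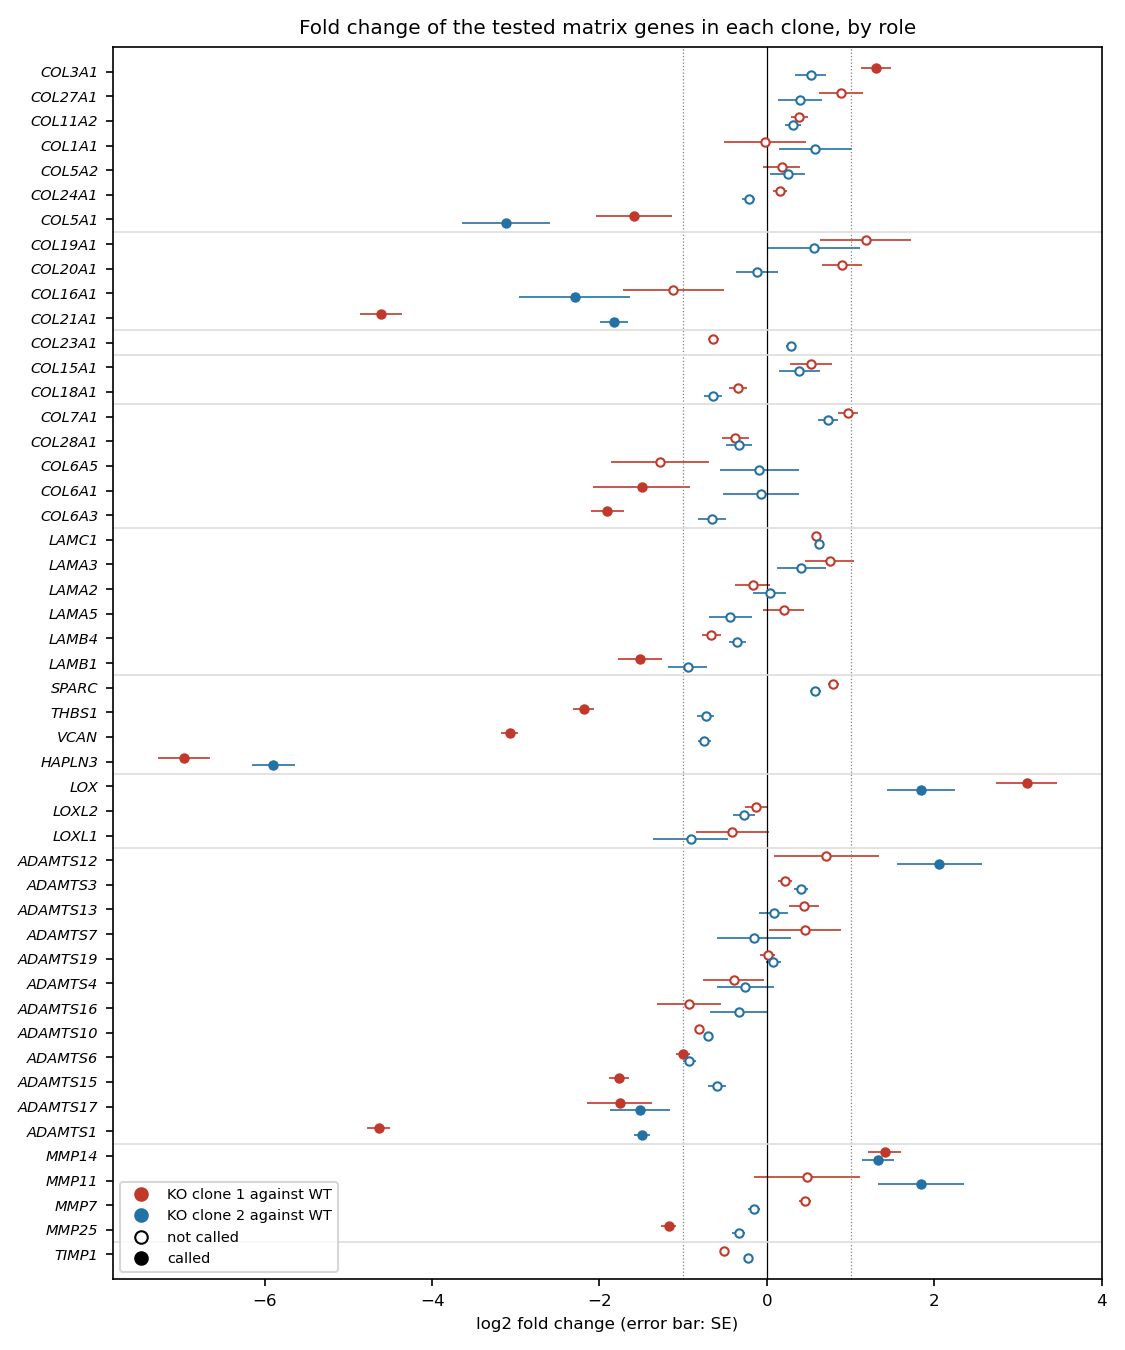
Log2 fold change against WT (horizontal axis) with its SE for the 49 members that passed the filter, by role, in KO clone 1 (red) and KO clone 2 (blue), with filled points for calls and dotted lines at the fold minimum. ADAMTS1, COL21A1, VCAN and THBS1 lie much lower in KO clone 1 than in KO clone 2, COL5A1 lies lower in KO clone 2, and MMP14 lies close together in both.

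The clones differed from each other in 10 of the 49 members, with 8 higher and 2 lower in KO clone 2, or 20.4%, where 2.82% of all genes tested were called, 1.58% higher and 1.23% lower. By the adjusted p alone 19 of the 49 members differed, beside 5355 of all 20655 genes (25.9%). The fold change in this comparison takes no WT level, though the WT libraries entered the filter, the scaling and the estimate of the spread. ADAMTS1, COL21A1, VCAN, THBS1, COL6A3 and ADAMTS15 were higher in KO clone 2, each having fallen further in KO clone 1, and ADAMTS12 and MMP11 were higher, each called above WT in KO clone 2 and not in KO clone 1. LOX and COL20A1 were lower in KO clone 2. Counted without regard to strand 6 members differed, with THBS1, LOX, COL20A1 and MMP11 no longer called. Over all 113 members the summed level was 491 CPM in WT, 387 ± 3.67 in KO clone 1 and 432 ± 2.43 in KO clone 2 (SD, n = 3).

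Many matrix genes had reads mainly on the strand opposite the gene. Among the 59 members with at least 100 counts when strand is ignored, 21 had over 50% of their stranded counts, own and opposite strand summed, on the strand opposite the gene, and 22 had under 5%. A gene could enter the 59 through reads on the opposite strand alone. The share of all genes with over 50% there was not taken. Reads that overlap genes on both strands are left out of the count that ignores strand, so the stranded counts can exceed it. FN1 had 78 counts on its own strand and 4330 on the other (98.23%), with no annotated gene overlapping it on the other strand. COL10A1 had 5 against 2263, in the body of NT5DC1, and COL17A1 had 4 against 1720. LAMA5 had 305 against 15145, on the strand where ADRM1 and LAMA5-AS1 overlap it. For TIMP1 the other strand held 0.0484%. Ignoring strand, 17 further members would have passed the filter, among them THBS2, a relative of thrombospondin 1. THBS2 had 11 counts on its own strand and 707 on the other, and the authors' deposited table, made from counts without regard to strand, marks it as lower (log2 fold change -1.53, adjusted p 7.883e-07). On its own strand it had 7, 2 and 2 counts in the 3 groups and was not tested. That table marks 12 members as changed, 2 higher (ADAMTS12 and MMP14) and 10 lower, beside 1.47% of its 45107 genes with a statistic marked higher and 3.13% lower. Of the 12, ADAMTS1, ADAMTS12, COL16A1 and VCAN have an adjusted p above 0.05 there (0.05686, 0.1009, 0.06437 and 0.1521 in the authors' deposited table).

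**Figure D4:**
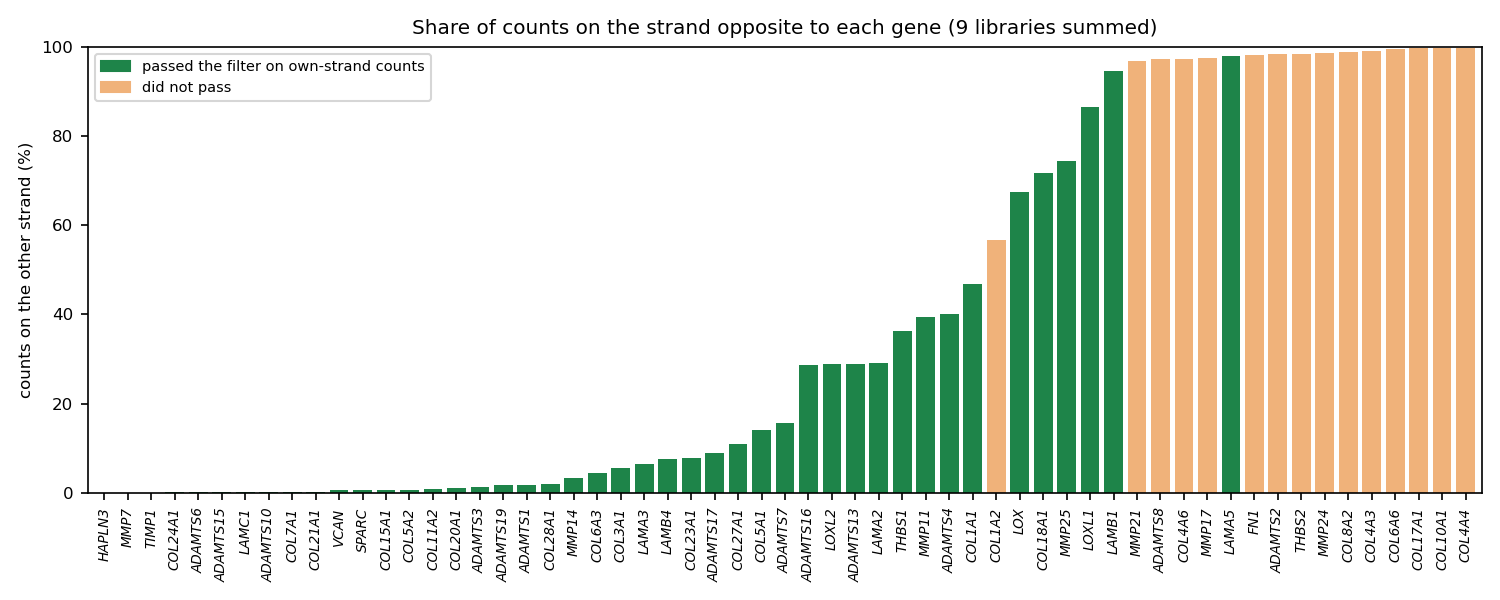
Percent of the stranded counts (own plus opposite strand, 9 libraries summed) on the strand opposite each gene, one bar for each of the 59 members with at least 100 counts without regard to strand. Green bars passed the filter on own-strand counts. The members fall toward both ends, with 21 over 50% and 22 under 5%.

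Promoters were read for the members that RefSeq's table holds, 78 of 113 on GRCh38.p14, in a window from 250 bases before to 50 after the start of transcription. The GC box GGGCGG, the core of sites bound by SP1, was found on either strand in 48 member promoters (61.5%) and in 45.0% of all 35116 promoters. Of the 37 members with a promoter that passed the filter, 25 held it (67.6%). Among the 14 called members with a promoter it was in 11, and among the 6 called in both clones in 5. The TATA box TATAAA was in 16.7% of member promoters and 11.5% of all, in 3 of the 37 (8.11%) and in 0 of the 14. The AP-1 site TGACTCA was in 2.56% and 4.95%, in 2 of the 37 (5.41%) and in 0 of the 14. No motif contains another, and a match is a description of the sequence only. The 250 bases upstream of 4 members called in both clones are shown, 2 that fell (HAPLN3, COL21A1) and 2 that rose (LOX, MMP14), each 5′ to 3′ on the gene's strand with GC boxes in capitals. They lie at chr15:88895545-88895794 (minus), chr6:56247581-56247830 (minus), chr5:122078260-122078509 (minus) and chr14:22836335-22836584 (plus).
HAPLN3: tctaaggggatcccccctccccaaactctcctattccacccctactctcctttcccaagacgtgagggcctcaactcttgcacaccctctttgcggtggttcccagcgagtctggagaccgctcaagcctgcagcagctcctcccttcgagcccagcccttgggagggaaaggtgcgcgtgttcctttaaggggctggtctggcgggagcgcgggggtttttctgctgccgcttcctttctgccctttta
COL21A1: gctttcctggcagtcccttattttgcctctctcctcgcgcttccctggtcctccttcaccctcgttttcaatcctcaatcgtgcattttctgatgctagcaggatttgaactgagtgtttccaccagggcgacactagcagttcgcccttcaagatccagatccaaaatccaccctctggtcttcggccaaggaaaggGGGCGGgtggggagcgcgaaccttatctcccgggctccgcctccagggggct
LOX: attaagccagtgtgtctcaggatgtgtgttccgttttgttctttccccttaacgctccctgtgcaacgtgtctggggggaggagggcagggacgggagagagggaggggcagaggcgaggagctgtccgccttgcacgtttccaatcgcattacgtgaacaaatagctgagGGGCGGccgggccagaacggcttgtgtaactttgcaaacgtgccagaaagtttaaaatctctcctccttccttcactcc
MMP14: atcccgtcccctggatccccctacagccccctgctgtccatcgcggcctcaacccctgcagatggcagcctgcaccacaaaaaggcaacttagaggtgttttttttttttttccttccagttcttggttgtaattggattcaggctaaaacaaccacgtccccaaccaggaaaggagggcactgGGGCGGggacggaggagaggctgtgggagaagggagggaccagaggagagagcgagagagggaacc
The first of these holds no GC box, and the other 3 hold 1 each, starting 52, 79 and 66 bases before the start of transcription. Genes that fell and genes that rose thus both carry the motif. RefSeq's start for COL21A1 lies inside the longer gene body given above.

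A wider list of 118 matrix genes, made of further matrix proteins, integrins and other receptors, collagen-modifying enzymes and membrane proteases, held 74 that passed the filter. In the mean of both clones 6 were called higher and 7 lower, 17.6% of the 74 beside 6.53% of all genes. LOXL3, a lysyl oxidase relative, rose from 10.5 ± 1.27 CPM in WT to 55.8 ± 2.60 in KO clone 1 and 55.2 ± 1.23 in KO clone 2, a log2 change of 2.41 (adjusted p = 4.13e-32). TNXB, a tenascin of connective tissue, rose from 10.7 ± 0.641 CPM to 32.7 ± 2.5 and 69.3 ± 2.03 (2.16, adjusted p = 8.59e-31). TNXB has a near-identical partial copy, TNXA, so its counts are uncertain. The proteases CTSS, ADAM9 and PLAU rose by 1.83, 1.16 and 1.15.

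FBN1, fibrillin 1, fell from 18.9 ± 0.465 CPM to 3.78 ± 0.0969 in KO clone 1 and 7.14 ± 0.533 in KO clone 2 (-1.86, adjusted p = 4.6e-24). ADAM19, a membrane protease, fell from 4.65 ± 0.183 CPM to 0.253 ± 0.166 and 1.69 ± 0.212 (-2.80, adjusted p = 1.11e-17). The laminin receptor chain ITGA6, ITGB3 and EMILIN2 fell by 1.20, 1.39 and 1.13 in the mean of both clones. In both clones separately and in the same direction, 5 of the 74 were called higher and 3 lower, or 10.8%. Of all genes tested 1.3% were higher and 3.04% lower in this way. By list these were 0 of 22 receptors, and 1 higher and 1 lower of 19 glycoprotein and hyaluronan genes. Of 18 membrane proteases, activators and inhibitors 3 were higher and 2 lower, and of 15 collagen-modifying genes 1 was higher. Without regard to strand ADAM9 stood at 0.40 and EMILIN2 at -0.90, neither called. Between the clones 7 were higher in KO clone 2 and 1 lower, 10.8% of the 74 beside 2.82% of all genes (1.58% higher and 1.23% lower). These were the collagen receptor chain ITGA2 by 2.63 (adjusted p = 6.19e-13), ADAM19 by 2.68, ADAM28 by 2.59, ITGB3 by 1.91, SERPINE2 by 1.72, SPP1 by 1.36 and TNXB by 1.08, and the inhibitory collagen receptor LAIR1 by -1.08 (adjusted p = 1.51e-17).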

How the data were processed

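The submitters' processing notes name STAR, DESeq2 and GRCh38, and the versions are not given in the sources used here. The authors deposited counts of read pairs per gene for each library, in 3 columns by strand. They also deposited 1 table comparing both clones together with WT, holding log2 fold changes, p-values and their adjusted values. Its 18 further columns of values per sample were not used. The count on the gene's own strand, which holds 92.03% to 92.31% of stranded counts, was used throughout. Positions and exon lengths came from GENCODE release 44.

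The analysis ran in edgeR 4.0.16 on R 4.3.3: filterByExpr by group (20655 genes left), trimmed mean of M-values (TMM) scaling, a robust quasi-likelihood fit over all 9 libraries with 1 coefficient per group, and F tests of 4 contrasts. CPM uses the scaled library sizes. Calls needed both an adjusted p (Benjamini-Hochberg) under 0.05 and a log2 fold change of 1 or more in size. Total counts of 28006342 to 43149410 per library set the precision. Data simulated for the mean of both clones over 20655 genes were scored by the adjusted p alone, with no fold minimum. It was passed by 90 of 100 genes changed 2-fold, 98 of 100 changed 4-fold and 11 of 20048 unchanged genes. Calls, which also need the fold minimum, were not scored in this way. Alternatives were DESeq2's size factors, library totals, no filter, counts without regard to strand, a replicate block, only the groups compared, each library left out, the DESeq2 Wald test and the adjusted p alone. Genes with values per library are PRMT2, the members called in any contrast, the 10 members with the highest CPM and those on chromosome 21. Members and lists were chosen with earlier results of these data known.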

Additional observations from a re-analysis of the deposited data

Results flagged for a closer look

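The effects of the 2 clones against WT differed in 19 of the 49 members tested, by the test of KO clone 2 against KO clone 1 (edgeR quasi-likelihood, adjusted p under 0.05). Of all 20655 genes tested 5355 differed (25.9%). The difference in log2 fold change was positive, with KO clone 2 higher, for ADAMTS1 (3.15), COL21A1 (2.78), VCAN (2.33), THBS1 (1.45), MMP11 (1.37), ADAMTS12 (1.35), COL6A3 (1.25), ADAMTS15 (1.17), COL23A1 (0.93), MMP25 (0.84), LAMB4 (0.31) and TIMP1 (0.28). It was negative for LOX (-1.26), COL20A1 (-1.01), COL3A1 (-0.78), MMP7 (-0.61), COL24A1 (-0.38), COL18A1 (-0.30) and SPARC (-0.21). COL23A1 is the member among these where 1 clone passed the adjusted p below WT and the other above it. Each group is 1 clone or the WT cells, so differences between clones and between single cultures cannot be told apart.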

How the results depend on the processing

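Of 50 member calls over the 4 contrasts, 33 held under every alternative tried. The adjusted p alone, a looser rule than a call, was passed by 31 of the 49 members in KO clone 1 and 29 in KO clone 2. It was passed by 30 in the mean of both, 19 between the clones and 24 in both clones in the same direction. Of all genes tested 36.2%, 30.5%, 35.3%, 25.9% and 19.6% passed it in these comparisons. Of the 74 wider matrix genes tested, 47 passed it in the mean and 41 between the clones. Without regard to strand, 6 members differed between the clones, LAMB1 in the mean of both clones turned to 0.052 and ADAM28 in KO clone 2 to 0.13, and calls of LOX, THBS1, MMP25, LAMB1, COL6A1, COL20A1 and MMP11 were lost. With single libraries left out, the members called ranged from 14 to 17 in KO clone 1, 10 to 11 in KO clone 2, 12 to 15 in the mean, 7 to 11 between the clones and 7 to 8 in both. Replicates with the same number did not deviate together over the genes tested (correlations of -0.028 to 0.039). This cannot tell whether libraries of the same number were handled together. With the replicate block the members called were 15, 10, 14, 10 and 7, and the block cost 1 call, COL6A1 in KO clone 1. Restricting the fit to the groups compared gives no value for the mean of both clones. Depth limits the members with few counts: ADAMTS12, MMP11, COL16A1 and COL6A1 lost calls when single libraries were left out.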
